A study of Mus musculus with 4 samples.

Results

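The genes described are 40 enzymes of nitrogen and amino acid metabolism, chosen from a fixed list by symbol. They are 40 of the 21887 protein-coding genes on placed chromosomes in the RefSeq annotation of GRCm38.p6, the assembly called mm10. Their peaks are those of the deposited MafG list that lie inside the gene or within 10 kb of either end. The list comes from chromatin immunoprecipitation with sequencing (ChIP-seq) on livers of C57BL6/J mice, with an antibody against the BLRP tag (named Avi-tag in the labels). The series has 2 libraries of livers treated with Ad BLRP MAFG, which overexpressed tagged MafG, and 2 of livers treated with Ad BLRP Control, which received the tag without MafG. Both groups share the strain, the tissue and the antibody; no source used here gives age, sex or the number of animals per library. Because the tagged protein was overexpressed, a listed peak need not be a site of native MafG. The authors called the peaks once, on 1 collection of BLRP-MafG tags over 1 collection of control tags, so the values below have no replicate spread and no comparison between animals could be tested. A peak list gives no expression level, so the identity of the tissue could not be checked against marker genes.

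The liver breaks down most amino acids of the diet. Aminotransferases move amino groups onto glutamate, glutamate dehydrogenase and glutaminase release ammonia, and the urea cycle of periportal hepatocytes turns that ammonia into urea, while perivenous hepatocytes capture what is left as glutamine. The carbon skeletons go to gluconeogenesis or to ketone bodies through branches of their own for tyrosine, tryptophan, histidine, lysine, the branched-chain amino acids, methionine and proline. MafG belongs to the small MAF proteins, which carry a basic leucine zipper but no activation domain of their own and bind DNA as dimers, with each other or with partners such as NRF2 or BACH1.

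Nearly every gene of the list had a MafG peak close to it. A peak was listed within 10 kb of an end in 39 of the 40 genes, compared with 69.2% of all protein-coding genes. Got1 was the only one with none. Within 1 kb of an end, 20 of 40 had a peak, against 24.5% of all protein-coding genes. Inside the gene 31 of 40 had one, against 50.5%. A peak inside or within 10 kb was listed for 39 of 40, against 74.5%. When only peaks at least 20-fold over control in the authors' deposited table were kept, the count within 1 kb was 11 of 40, against 15% of all genes. That ratio counts 0 control tags as 0.5, so low peaks without control tags can pass this limit. Without the olfactory and vomeronasal receptor genes, a background chosen after the data were seen, 72.3% of the remaining 20422 protein-coding genes had a peak within 10 kb. The median length of the 40 genes was 20.8 kb, against 17.2 kb over all genes. No test was made of these differences, since the list was chosen with results of these data known.

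The highest peak of each gene was also mostly taller than that of a typical gene. The height of a peak is its normalized tag count, the number of BLRP-MafG tags in 200 bp scaled by the authors to 10000000 tags in total. The median of the highest normalized tag count per gene was 31.6 (quartiles 16.6 and 67.5) over the 40 genes, with Got1 at 0, against 13.7 (quartiles 0 and 34.3) over all protein-coding genes. Among genes with a peak the medians were 32.8 and 21.6. The highest peak exceeded the median of all genes in 34 of 40, where 49.9% of all genes do so by construction. It reached 50 or more in 13 of 40 genes, against 17.1% of all genes. In 7 of 40 it lay in the top 10% of all genes, a limit that 9.92% of genes passed because of ties. These were Sds, Sdsl, Asl, Tat, Glud1, Aass and Ass1, and Sds and Sdsl share the same peak. Arg1, at 79.9, stood at the limit itself: it is above the interpolated 90th percentile of 79.6, but it is tied with other genes, and just under 90% of genes were lower. Bckdhb and Kmo, at 78.4 and 77.4, stood just outside.

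**Figure D1:**
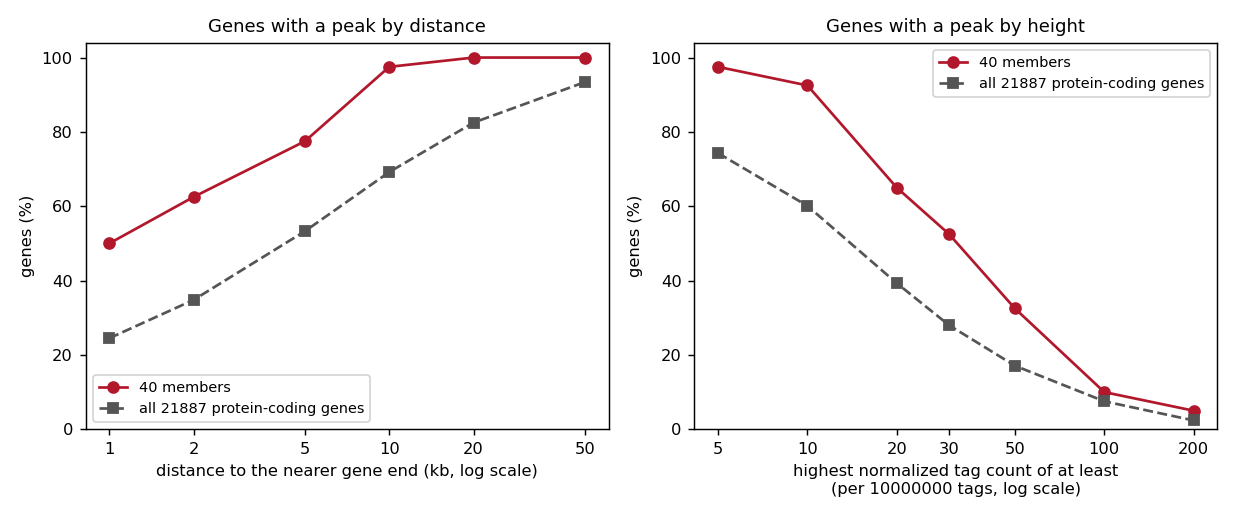
Share of genes with a listed peak (%), for the 40 genes (circles) and all 21887 protein-coding genes (squares), by the distance allowed to the nearer gene end in kb (left, log scale) and by the least height of the highest peak inside or within 10 kb (right, log scale). At 10 kb the shares are 97.5% and 69.2%, at 1 kb 50% and 24.5%, and for a height of 50 or more 32.5% and 17.1%.

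In all, 134 different peaks lay in range of the 40 genes, and 3 of them were in range of 2 genes of the list. The median height of these 134 peaks was 13.9 (quartiles 9.31 and 25), close to the 12.3 (quartiles 7.84 and 23.5) of all 68763 peaks. A count of 100 or more was found for 4 of them and a count under 10 for 42. Neither these counts nor the places that follow were taken over all listed peaks. Placed by only 1 gene each, 74 peaks lay inside that gene, with a median of 14.2, and 60 outside it, with a median of 13.4. A peak of 9.31 counted here as outside Sds lies inside Sdsl. In range of 25 of the 40 genes lay 3 or more peaks, against 32.5% of all protein-coding genes, and 8 of 40 had exactly 1, against 24.1%. Abat had 16, the most of the list, and Bckdhb 11. Summed over the genes, there were 62.7 peaks per Mb of gene and 10 kb flanks, against 34.7 over all protein-coding genes. By rank, the number of peaks per gene followed gene length less closely within the list (Spearman's rho 0.184 across 40 genes) than across all genes (0.61 across 21887). With the logarithm of length, Pearson's r within the list was 0.442, which was not computed over all genes. The difference was not tested. These are descriptions over genes that share 1 tag collection, and genes are not independent replicates.

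**Figure D2:**
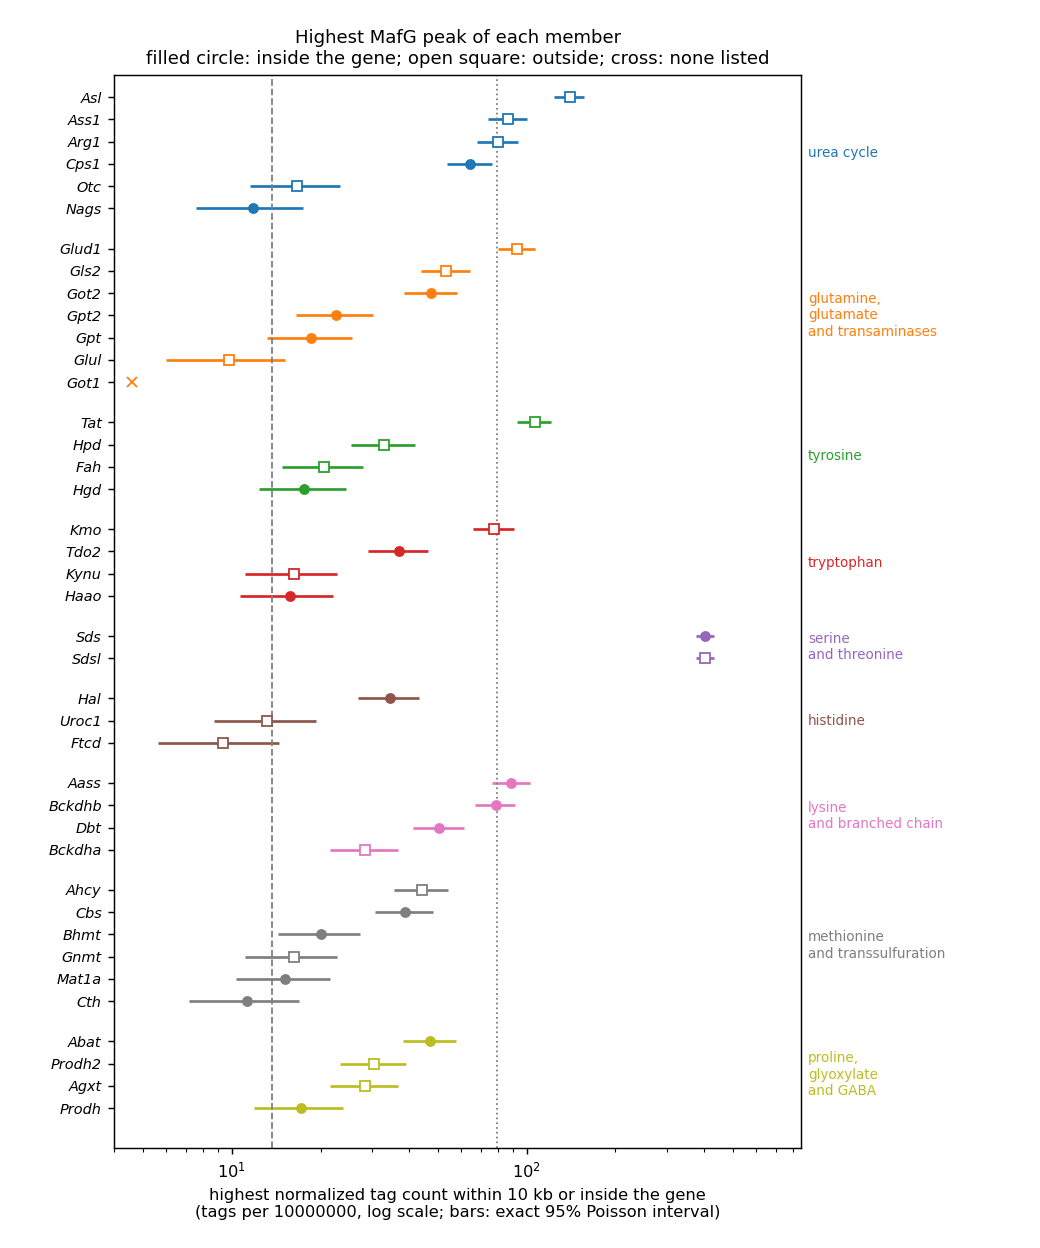
Highest normalized tag count (per 10000000 tags, log scale) of any peak inside or within 10 kb of each gene, grouped by pathway branch, with exact 95% Poisson intervals of the tag count as bars. Filled circles lie inside the gene, open squares outside, and the cross marks Got1, which has no listed peak; the dashed line is the median of all protein-coding genes (13.7) and the dotted line their 90th percentile (79.6). The peak shared by Sds and Sdsl stands apart at 402.3.

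Where a gene start was known, the highest peak mostly stood away from it. RefSeq promoter entries, which give a start and strand, were matched by symbol for 28 of the 40 genes, of which 27 have a peak. The entries not matched were those of Cps1, Asl, Arg1, Gls2, Gpt, Kynu, Sds, Sdsl, Dbt, Mat1a, Cth and Abat. The tallest peaks of the list, at Sds and Asl, are therefore not included. In 22 of the 27 genes the highest peak lay over 5 kb from the nearest start, against 70.1% of the 13007 protein-coding genes with an entry and a peak. In 2, Prodh2 and Nags, it lay within 1 kb, against 11.7%. In 17 of them it lay downstream of the start, against 69.8%, and in 10 upstream. A peak within 1 kb of a start was found in 9 of the 27 genes, a share of 33.3% near the 29.2% of all such genes, and the tallest of those, at Prodh2, reached 30.4. The highest peaks of Tat, Glud1, Aass and Kmo lay 18781, 37500, 10779 and 38067 bp downstream of the start. Of the highest peaks over 50 with a known start, that of Ass1 was the closest, 1259 bp upstream.

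**Figure D3:**
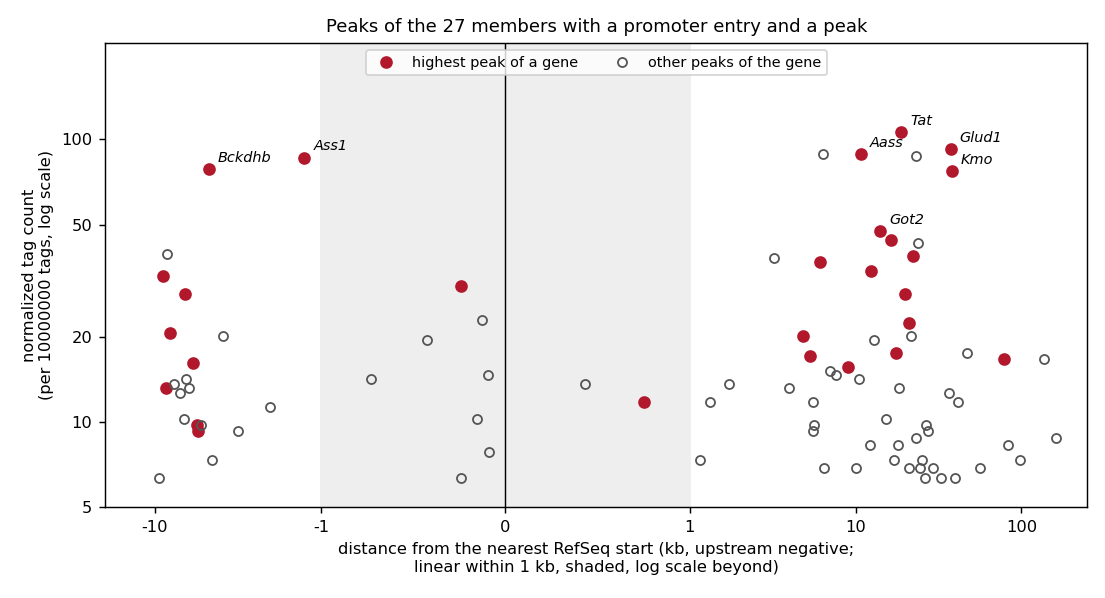
Normalized tag count (per 10000000 tags, log scale) of each peak against its distance from the nearest RefSeq start of its gene in kb (upstream negative, linear within 1 kb and log scale beyond), for the 27 genes with a promoter entry and a peak. Filled circles are the highest peak of a gene and open circles its other peaks; within 1 kb of a start, in the shaded band, no peak exceeds 30.4.

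A peak overlapped the promoter window, which runs from 250 bases before to 50 after the start, in 6 of the 28 genes with an entry, against 12.9% of all 17492 protein-coding genes with one. The 6 were Prodh2, Hpd, Gnmt, Got2, Glul and Hal. The letters of 4 motifs were searched on both strands of the whole window. They were the AP-1 motif TGANTCA, the core of the antioxidant response element TGACNNNGC, TGCTGA, which is 1 arm of the palindromic MAF recognition element, and the full-length element. Over all 32851 RefSeq promoter windows, 7.81% hold TGANTCA, 12.4% TGACNNNGC, 19.5% TGCTGA and 0.00609% the full element, which contains both TGCTGA and the AP-1 letters. Among the 2299 windows that hold the midpoint of a listed peak these shares are 7.87%, 19.4%, 26.2% and 0.0435%. Of the 28 genes, 3 (10.7%) hold TGANTCA, 3 (10.7%) TGACNNNGC, 6 (21.4%) TGCTGA and 0 the full element, near the shares over all windows. Genes were counted once each over their 29 windows, whereas the shares above are per window. The promoters below are the 4 in which a match lies within the peak, shown because they place a motif's letters under measured signal. They are given 5′ to 3′ from RefSeq (GRCm38.p6), as the 250 bases before the start, with the match in capitals.
Prodh2 (chr7:30493408-30493657, plus strand): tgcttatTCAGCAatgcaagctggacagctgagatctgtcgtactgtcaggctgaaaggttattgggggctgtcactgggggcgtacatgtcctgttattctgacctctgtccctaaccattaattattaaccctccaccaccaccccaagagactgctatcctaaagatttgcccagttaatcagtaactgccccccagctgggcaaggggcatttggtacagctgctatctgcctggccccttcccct
Hpd (chr5:123182724-123182973, minus strand): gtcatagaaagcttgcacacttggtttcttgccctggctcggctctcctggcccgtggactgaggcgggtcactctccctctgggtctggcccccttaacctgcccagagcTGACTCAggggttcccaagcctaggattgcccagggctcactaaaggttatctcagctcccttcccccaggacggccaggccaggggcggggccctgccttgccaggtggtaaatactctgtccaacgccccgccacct
Gnmt (chr17:46729166-46729415, minus strand): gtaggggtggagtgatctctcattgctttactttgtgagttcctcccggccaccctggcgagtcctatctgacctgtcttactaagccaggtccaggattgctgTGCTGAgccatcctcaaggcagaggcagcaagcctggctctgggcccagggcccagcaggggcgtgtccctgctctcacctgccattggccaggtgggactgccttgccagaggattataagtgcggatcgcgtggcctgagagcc
Hal (chr10:93488518-93488767, plus strand): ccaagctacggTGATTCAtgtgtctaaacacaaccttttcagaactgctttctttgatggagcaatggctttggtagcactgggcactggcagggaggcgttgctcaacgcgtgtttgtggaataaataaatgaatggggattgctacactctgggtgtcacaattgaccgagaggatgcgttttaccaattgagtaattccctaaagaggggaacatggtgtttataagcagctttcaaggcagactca
The capitals mark TGCTGA on the opposite strand in Prodh2, an AP-1 match in Hpd and in Hal, and TGCTGA on the strand shown in Gnmt. Counted from the start, the peaks cover -339 to -139 in Prodh2, -226 to -26 in Hpd, -196 to 4 in Gnmt and -340 to -140 in Hal. Their normalized tag counts were 30.4, 23, 14.7 and 6.37 in the same order. The promoters of Got2 and Glul, under peaks of 10.3 and 7.84, hold none of these letters. A match is a description of the sequence and not a binding site, and motifs under peaks away from starts were not examined here.

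The urea cycle genes had some of the tallest peaks of the list in range. All 6 genes had a peak within 10 kb, against 69.2% of all protein-coding genes, and 17 peaks lay in range. The median highest tag count of the 6 genes was 72.1. It counts peaks for Asl and Arg1 that are nearer to other genes. Asl, the lyase that splits argininosuccinate into arginine and fumarate, had the highest, of 140.2 (exact 95% Poisson interval 124 to 157). It lay 7384 bp outside the gene (gene ID 109900) at chr5:130031665-130031865, with 286 BLRP-MafG tags and 3 control tags, a ratio of 80.4 (27.2 to 392) after scaling to the tag totals. That peak is nearer to another gene, Crcp. The peak closest to an end of Asl, 60 bp outside it, was lower, at 26.5 (19.9 to 34.5), with 2 control tags and a ratio of 22.8 (6.01 to 193). Inside the gene stood one of 11.8 (7.54 to 17.5). Intervals here and below cover counting error only.

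Ass1, argininosuccinate synthetase, had its highest peak of 86.2 (74 to 100) at chr2:31468911-31469111, 1259 bp upstream of the start. It held 176 BLRP-MafG tags and 0 control tags. The ratio was 49.5 with a floor of 3 control tags (lower bound at 0 control tags 39.8). A lower peak of 19.6 lay 12911 bp inside the gene. Arg1, the arginase that releases urea, had 3 peaks. The tallest, of 79.9 (68.1 to 93.1), was 3482 bp from the gene at chr10:24911625-24911825 and is nearer to Med23. It held 163 BLRP-MafG tags and 0 control tags, a ratio of 45.8 with the same floor (lower bound at 0 control tags 36.9). Inside Arg1 stood one of 42.6 (34.1 to 52.6) with 0 control tags, and 29 bp beyond its other end one of 10.3. The tag count intervals of Ass1 and Arg1 overlapped each other, and that of Asl lay above both. The order rests on the assignment: with each peak given to its nearest gene alone, Ass1 stayed at 86.2 and Cps1 at 64.2, while Arg1 was at 42.6 and Asl at 26.5.

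The mitochondrial steps differed among themselves. Cps1, carbamoyl phosphate synthetase, which fixes free ammonia, held all of its 6 peaks within its 108842 bp. The highest, of 64.2 (53.7 to 76.2), stood near the middle at chr1:67170564-67170764, with 131 BLRP-MafG tags and 3 control tags, a ratio of 36.8 (12.3 to 181). The next, of 37.2 (29.3 to 46.6), stood 891 bp inside one end with 0 control tags, and the other 4 ran from 7.35 to 15.7. Otc, ornithine transcarbamylase on chromosome X, had 1 peak of 16.7 (11.5 to 23.3), 9902 bp past the end of the gene, and none inside it. That peak, at chrX:10330826-10331026, held 34 BLRP-MafG tags and 0 control tags. Its ratio was 9.56 with a floor of 3 control tags (lower bound at 0 control tags 7.36). Nags, which makes the activator of Cps1, had 1 peak of 11.8 (7.54 to 17.5) at chr11:102146168-102146368, 755 bp downstream of its start. It held 24 BLRP-MafG tags and 2 control tags, a ratio of 10.1 (2.51 to 88.4). The peaks of Otc and Nags were far below the highest of Cps1, and their tag count intervals did not reach it.

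**Figure D4:**
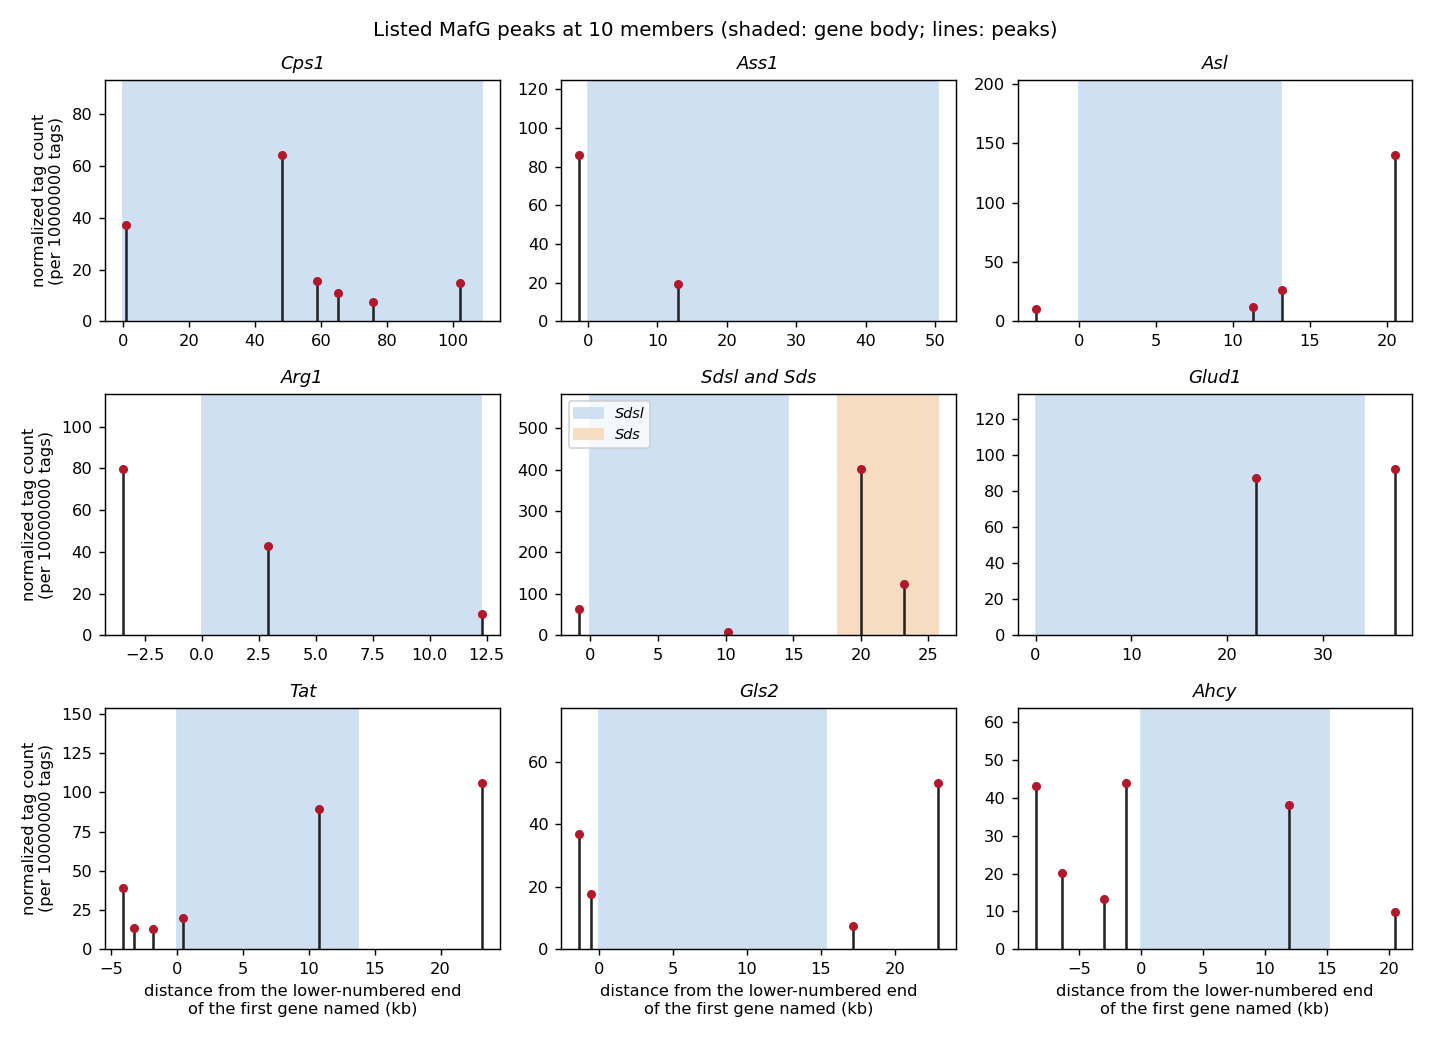
Listed peaks at 10 genes in 9 panels, as lines with the normalized tag count on the vertical axis (per 10000000 tags, linear, scaled per panel) and the distance in kb from the lower-numbered end of the first gene named on the horizontal axis; shading marks gene bodies. In the Ass1, Asl, Arg1, Glud1, Tat, Gls2 and Ahcy panels the tallest line stands outside the gene. In the Cps1 panel it stands inside the gene, and in the panel of Sdsl and Sds it stands inside Sds.

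Among the genes that load and unload glutamate and glutamine, 6 of 7 had a peak within 10 kb, against 69.2% of all protein-coding genes. Heights ran from none to 92.6 with a median of 22.5. Glud1, glutamate dehydrogenase, had a pair of similar tall peaks. One of 92.6 (79.9 to 107) lay 3194 bp past the end of the gene at chr14:34348127-34348327, with 189 BLRP-MafG tags and 0 control tags. Its ratio was 53.1 with a floor of 3 control tags (lower bound at 0 control tags 42.8). The other, of 87.2 (74.9 to 101), lay inside it at chr14:34333710-34333910, with 178 BLRP-MafG tags and 3 control tags and a ratio of 50.1 (16.9 to 245). Their intervals overlapped. Gls2, the liver-type glutaminase, had 4 peaks, all outside the gene. The highest, of 53.4 (43.9 to 64.4), lay 7555 bp away and nearer to Spryd4. Peaks of 36.8 and 17.6 lay 1318 and 552 bp outside the other end. Glul, glutamine synthetase, the perivenous enzyme of the pair, had only low peaks, of 9.8 (5.99 to 15.1), 7.84 and 6.86, each with 1 control tag, and none inside the gene.

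The aminotransferase genes ranged from no listed peak to one of 47.5. Got2, the mitochondrial aspartate aminotransferase, held a peak of 47.5 (38.5 to 58) 14065 bp downstream of its start, and lower ones of 13.7 and 10.3 at 432 bp downstream and 155 bp upstream. Got1, the cytosolic enzyme, had no listed peak within 10 kb. The nearest lay 15449 bp outside the gene, at 21.6. Gpt2 and Gpt, the mitochondrial and cytosolic alanine aminotransferases, had peaks of 22.5 (16.5 to 30.1) and 18.6 (13.2 to 25.6) inside the genes, with overlapping intervals. Each had 2 control tags.

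The shared locus of Sds and Sdsl had the tallest peak of the list. Sds encodes serine dehydratase, which turns serine into pyruvate for gluconeogenesis, and Sdsl a related enzyme; the gap between the genes measures 3721 bp. The peak of 402.3 (375 to 431) lay 1661 bp inside Sds at chr5:120478108-120478308. It held 821 BLRP-MafG tags and 5 control tags, a ratio of 139 (59.1 to 428), and exceeded the highest peak of 99.6% of all protein-coding genes. A second peak of 123.5 (109 to 140) lay 3169 bp farther along, also inside Sds, with 252 BLRP-MafG tags and 2 control tags and a ratio of 106 (29.1 to 882). Sdsl is in range of both only as a neighbour. When each peak was given to its nearest gene alone, Sdsl kept one of 63.2 (52.8 to 75.1), 832 bp outside its far end, and one of 9.31 inside it.

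In tyrosine breakdown the first enzyme had the tallest peaks. Tat, tyrosine aminotransferase, had 6 peaks in range, with normalized tag counts of 106.3, 89.2, 39.2, 20.1, 13.7 and 13.2. The tallest (92.7 to 121) lay 9413 bp past the end of the gene at chr8:110009117-110009317, with 217 BLRP-MafG tags and 2 control tags and a ratio of 91.5 (25 to 761). The next (76.7 to 103) lay inside the gene, with 6 control tags and a ratio of 25.6 (11.5 to 70.6). The 4 lower ones stood together at the other end of the annotated gene, between 3881 and 8477 bp upstream of the start in the promoter entry. The later enzymes had lower peaks. Hpd, hydroxyphenylpyruvate dioxygenase, had one of 32.8 (25.4 to 41.7) 8907 bp upstream besides the one of 23 (16.9 to 30.6) over its promoter. Fah, fumarylacetoacetate hydrolase, had 6 peaks, none above 20.6 (14.8 to 27.8), and Hgd, homogentisate dioxygenase, held one of 17.6 (12.4 to 24.4). No interval of these 3 genes reached that of Tat.

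All 4 genes of the kynurenine pathway of tryptophan had a peak within 10 kb, against 69.2% of all protein-coding genes. Their median highest tag count was 26.5. Kmo, kynurenine monooxygenase, was the highest at 77.4 (65.8 to 90.5), at chr1:175670160-175670360, with 158 BLRP-MafG tags and 1 control tag and a ratio of 133 (23.6 to 5297). That peak lay 9407 bp past the gene and nearer to Opn3. With peaks given to the nearest gene alone, Kmo kept only low ones, of 9.31 and 7.35. Tdo2, the dioxygenase that opens the pathway, had a single peak of 36.8 (28.9 to 46.1) inside the gene, 6138 bp downstream of its start. Kynu, kynureninase, had one of 16.2 (11.1 to 22.7) 10 bp outside one end with 0 control tags. Haao, which acts later, held 3 of 15.7, 14.2 and 11.8 within 4883 bp.

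The genes of histidine breakdown had a median of 13.2, close to the 13.7 of all protein-coding genes, with Hal well above the other members. Hal, histidine ammonia lyase, held one of 34.3 (26.7 to 43.3) at chr10:93500986-93501186, with 70 BLRP-MafG tags and 1 control tag and a ratio of 59 (10.3 to 2365). Its other 3 were of 6.86, 6.86 and 6.37, the last at its promoter. Uroc1, urocanate hydratase, reached 13.2 (8.72 to 19.3), and Ftcd, the formimidoyltransferase at the end of the branch, 9.31 (5.61 to 14.5), each at a peak nearer to another gene (Chst13 and Spatc1l).

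The lysine and branched-chain genes all had a peak inside the gene, against 50.5% of all protein-coding genes. Their median highest tag count was 64.5. Aass, the bifunctional enzyme that opens lysine breakdown, held 5 peaks and reached 88.7 (76.2 to 103) at chr6:23122107-23122307, with 181 BLRP-MafG tags and 2 control tags and a ratio of 76.3 (20.8 to 635). Its other peaks were of 17.6 or lower. The 3 genes of the list that encode parts of the branched-chain ketoacid dehydrogenase differed. Bckdhb, the beta subunit of its decarboxylase, held 10 peaks in a gene of 199130 bp, with one of 78.4 (66.7 to 91.5) and the rest at 16.7 or lower. Dbt, its transacylase core, held 3, the highest of 50.5 (41.2 to 61.2). Bckdha, the alpha subunit, reached 28.4 (21.6 to 36.7) at a peak nearer to Exosc5, had one of 19.6 (14 to 26.7) 422 bp upstream of its start that is also nearer to Exosc5, and held only one of 6.37 inside. The intervals of the highest peaks of these 3 genes did not overlap.

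Genes of methionine and transsulfuration all had a peak within 10 kb, against 69.2% of all protein-coding genes. Their highest peaks were of moderate height, with a median of 18.1 and a range from 11.3 to 44.1. Ahcy, which clears S-adenosylhomocysteine, had 6 in range. Those of 44.1 (35.5 to 54.2) at chr2:155057968-155058168, 43.1 (34.6 to 53.1) and 38.2 (30.2 to 47.7) had overlapping intervals; the first lay 1242 bp past the end of the gene, with 90 BLRP-MafG tags and 2 control tags and a ratio of 38 (10.2 to 318). The second is nearer to the agouti gene, and the third lies inside Ahcy. Cbs, cystathionine beta-synthase, held one of 38.7 (30.6 to 48.2) with 1 control tag, 2372 bp from its far end, whereas Cth, the next enzyme of transsulfuration, had none above 11.3 (7.14 to 16.9). Bhmt, which remethylates homocysteine with betaine, reached 20.1 (14.4 to 27.3) inside the gene. Gnmt, a methyltransferase that consumes S-adenosylmethionine, had 16.2, 14.7 and 12.7, and Mat1a, which makes that methyl donor in liver, held 1 of 15.2 (10.3 to 21.6).

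Of the remaining genes, Abat, the aminotransferase that degrades GABA, spread 13 peaks along its 108140 bp and had 3 more outside. The highest, of 47 (38.1 to 57.4), lay inside at chr16:8595537-8595737, with 96 BLRP-MafG tags and 4 control tags and a ratio of 20.2 (7.66 to 75.8). It made up 19% of the summed height of its peaks, against 75.2% for the tallest peak of Sds. Prodh2, hydroxyproline dehydrogenase, had only its promoter peak of 30.4 (23.3 to 38.9), with 62 BLRP-MafG tags and 0 control tags. The ratio of that peak was 17.4 with a floor of 3 control tags (lower bound at 0 control tags 13.8). Prodh, proline dehydrogenase, held 2 of 17.2 (11.9 to 23.9) and 14.7 inside the gene. Agxt, which detoxifies glyoxylate in the peroxisome, had none inside it. Its only peak, of 28.4 (21.6 to 36.7), lay 9793 bp past the gene and nearer to Mab21l4.

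Many of the highest peaks cannot be given to 1 gene by distance. Of the 39 highest peaks, 19 lay inside their gene and 20 outside, and 12 of those outside were nearer to another protein-coding gene. The peak shared by Sds and Sdsl is counted for each of them, inside Sds and outside Sdsl. In 19 cases no other protein-coding gene was in range. The control collection was low throughout: 9 of the 39 held 0 control tags, 23 held 1 to 3 and 7 held 4 or 5. In 18 of the 39 the lower bound of the ratio to control was above 10, the excess that the peak caller required. The counts of this paragraph were not made over all protein-coding genes, so they show nothing particular to the list.

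Other genes of the same pathways also mostly had peaks, with lower median heights. Of 51 such genes, not among the 40, 46 (90.2%) had a peak within 10 kb, 22 (43.1%) within 1 kb and 40 (78.4%) inside the gene. In the same order the shares were 97.5%, 50% and 77.5% for the 40 genes. For all protein-coding genes they were 69.2%, 24.5% and 50.5%. Their median highest tag count was 21.1, against 31.6 for the 40 genes and 13.7 for all protein-coding genes. In the top 10% lay 6 of 51 (11.8%), against 9.92% of all genes. The highest was a peak of 691 (655 to 728) 2151 bp from Hdc, which makes histamine from histidine; Slc27a2 is also in range of it. Slc25a13, the mitochondrial aspartate-glutamate carrier that supplies the urea cycle, held one of 366.1 (340 to 393) at chr6:6076069-6076269, with 747 BLRP-MafG tags and 2 control tags and a ratio of 315 (86.9 to 2606). Slc38a3, a glutamine transporter of hepatocytes, held one of 266.6 (245 to 290) at chr9:107660860-107661060, where 544 BLRP-MafG tags stood against 1 control tag, a ratio of 459 (82 to 18158). Grhpr, which reduces glyoxylate, had one of 148 (132 to 166) 16 bp outside its end with 0 control tags, and Acmsd, which diverts an intermediate of tryptophan breakdown from NAD synthesis, held one of 137.7 (122 to 155). No peak within 10 kb of an end was listed for Gldc, Shmt2, Dmgdh, Mat2a and Agxt2, of which Gldc, Dmgdh and Agxt2 had one farther inside.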

How the data were processed

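The series holds 4 liver ChIP-seq libraries, 2 of BLRP-MafG and 2 of BLRP control, and 1 deposited peak list for all of them. Per the submitters' processing notes, Bowtie2, HOMER and the build mm10 were used. Per the file headers, HOMER findPeaks compared 1 BLRP-MafG tag collection (20406492 tags) with 1 control collection, with peaks of 200 bp, at least 10-fold over control with a Poisson p-value of 1e-06, at least 4-fold over the surrounding 10 kb, and at most 1 tag per bp. No source used here says whether a collection pooled the 2 libraries of its group. The deposited normalized tag count is a signal that the authors scaled to 10000000 tags, and the deposited control signal is unscaled, with 0.5 for 0 tags. Fold values were deposited as linear ratios, the deposited p-values weigh tags and not animals, and the deposited score was not used.

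Undoing the scaling gave whole tags within 0.10 for 100% of peaks. From these came exact 95% Poisson intervals and, with the 1.72e+07 control tags that the deposited counts imply, exact 95% conditional binomial intervals of ratios to control. Where the control held 0 tags, a floor of 3 tags per peak took its place in the ratio, while the lower bound used 0 tags. The median was 25 BLRP-MafG tags and 1 control tag per peak. Weaker signal may exist at genes with no listed peak, since the lowest listed normalized tag count was 4.41. Peaks were assigned by midpoint to genes of RefSeq GRCm38.p6, and all 40 genes and 51 further genes were found by symbol. Exons and introns were not separated. Coordinates are as deposited. The assignment and intervals were tested on simulated data (Python 3.11.15, pandas 2.3.3, scipy 1.17.1). Members, lists and settings were chosen with earlier results of these data known. All 40 genes are named; full values are given for genes in the top 10% of all genes, the highest of each branch and the urea cycle. Alternatives were a 20-fold limit, taller peaks only, any overlap, nearest gene only and other windows.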

Additional observations from a re-analysis of the deposited data

How the results depend on the processing

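The counts of genes with a peak and the median height were recomputed under 4 other ways of taking peaks. Within 10 kb, 32 of 40 genes had a peak with the 20-fold limit (54.4% of all genes), 32 with only peaks at or above the median height (46.2%), 39 with any overlap (69.4%) and 37 with the nearest gene alone. In the same order, 22 (40.8%), 23 (35.8%), 33 (52.5%) and 31 had one inside, and 11 (15%), 14 (11.2%), 20 (25.8%) and 19 had one within 1 kb. For the nearest gene alone no share of all genes was computed, so those counts stand without a background. The median highest normalized tag count, 31.6, was 26.7 with the 20-fold limit and 31.6 with the median height (10.3 and 13.7 over all genes). It was 31.6 with any overlap (14.2 over all genes) and 24.5 with the nearest gene alone. With a 50 kb window it was 48.2 (33.8 over all genes), and with a 1 kb window 19.9 (7.84 over all genes). Within 5 kb and 50 kb, 31 and 40 genes had a peak, against 53.3% and 93.4% of all genes. With the 20-fold limit, Agxt, Glul, Nags, Bhmt, Gpt and Gpt2 had no peak left. The highest peak was then lower for Hpd (23), Bckdha (19.6), Haao (14.2), Uroc1 (9.8), Hgd (6.86) and Cth (6.37). This limit used the deposited ratio, in which 0 control tags count as 0.5, so it did not select by height alone. The only peak of Ftcd, of 9.31 with 0 control tags, passed at a deposited ratio of 32.06. The only peak of Agxt, of 28.4 with 4 control tags, failed at 12.23. Peaks with 0 control tags made up 32.1% of those in range of the 40 genes and 44.4% of all listed peaks. With the median height, Glul, Ftcd, Nags and Cth had none. With the nearest gene alone, Agxt and Ftcd had none. The highest peak was then lower for Asl (26.5), Arg1 (42.6), Gls2 (36.8), Kmo (9.31), Sdsl (63.2) and Bckdha (6.37). It was also lower for Fah (15.2), Gnmt (14.7), Uroc1 (9.8) and Glul (7.84). No paired analysis was possible because the list holds no value per library, and leaving out a library was not possible for the same reason. Depth limits single ratios, since most highest peaks held 3 control tags or fewer.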

Other observations

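Of the 134 peaks in range of the 40 genes, 43 (32.1%) held 0 control tags, against 44.4% of all listed peaks, and the highest control count among them was 6 tags, in a peak of Tat. The cause was not tested.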
